A study of Homo sapiens with 12 samples.

Results

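RNA-seq of SW480, a line of human colorectal adenocarcinoma cells, gave a table of 3699 genes, of which 62 carry symbols of families named for mitosis and chromosome segregation. They were chosen by symbol prefix alone, not by their values. The prefixes were those of kinesins (KIF), centromere proteins (CENP), cell division cycle genes (CDC and CDCA), condensin subunits (NCAP), cyclins A, B, E and F, aurora and polo-like kinases, BUB1, TTK, TOP2A, BIRC5 and the outer kinetochore genes NDC80, NUF2, SPC and SKA. RefSeq has 143 protein-coding symbols of these prefixes, and those outside the table were not analysed here. Of the 62 members, 51 encode parts of the division machinery. The other 11 were counted apart. They are 8 kinesins, most known for transport or signalling and KIF24 for centrioles, the septin regulators CDC42EP1 and CDC42EP2, and the adaptor SKAP2.

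The 12 libraries fall into groups of 3: cells given GLY together with PUE (GLY_PUE), GLY alone, PUE alone, and untreated cells. The abbreviations are kept as labelled, and the labels give no doses. Every group had 12 h of growth in medium with 10% serum before 12 h of treatment, or of fresh medium alone in the untreated group. The GLY libraries are labelled 12, 13 and 14 h. Nothing states that replicates were separate cultures of this 1 line, so the spread behind each p-value may be technical.

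A dividing cell enters mitosis when cyclin B switches on the kinase CDK1. Condensin and topoisomerase II then compact and untangle the chromosomes, kinetochores built on centromeres attach them to spindle microtubules, and kinesin motors shape the spindle. Checkpoint kinases hold the cell until every chromosome is attached, after which the sister chromatids part and the cell cleaves. Most genes of this machinery are expressed in late cell cycle phases and are low in resting cells.

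Libraries held 19.4 to 21.1 M reads, of which the listed genes took 14.0 to 15.6%. Each of the 3699 genes had passed the authors' own limits for change in at least 1 comparison, so the table is a selected list in which most genes fell with GLY. The share of members that passed a test is therefore read against the share of all genes tested. GLY replicate 1 stood apart from GLY replicates 2 and 3, and in each group number 3 differed from numbers 1 and 2, so values are given with and without them where they matter. Of the markers of other cell types, the table holds 1 of 6 for leukocytes (CD14, at most 0.70 FPKM), 1 of 6 for fibroblasts (PDGFRB, at most 0.66 FPKM) and 0 of 4 for endothelium. Of 14 colon epithelial markers it holds 5, among them CDX2 at 3.59 to 4.5 FPKM in GLY_PUE, 3.0 to 6.4 FPKM in GLY and 22.9 to 28.2 FPKM in untreated libraries.

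The promoters of the division genes share short sequence elements that the choice by symbol did not use. Elements known from genes of late cell cycle phases were searched on both strands of the RefSeq promoter (build GRCh38.p14, 250 bases before to 50 after the gene start), which was at hand for 45 of the 51 division members and 8 of the other 11. They are the cell cycle genes homology region (CHR, TTTGAA or TTCAAA) and the NF-Y box (CCAAT or ATTGG). The stretches upstream of the start are shown for the member with the largest fall in GLY (KIF20A), for 4 division members that hold both elements close together (CCNB2, PLK1, KIF11 and KIF4A), and for a member that was higher in GLY (CDC42EP2). They lie at chr5:138179002-138179111, chr15:59105016-59105145, chr16:23678789-23678888, chr10:92593060-92593129, chrX:70290029-70290103 and chr11:65314796-65314865, each on the plus strand, and run 5′ to 3′ up to the base before the start. Capitals mark the elements.
KIF20A: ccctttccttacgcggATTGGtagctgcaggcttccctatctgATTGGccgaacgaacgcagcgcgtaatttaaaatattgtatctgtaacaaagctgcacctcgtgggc
CCNB2: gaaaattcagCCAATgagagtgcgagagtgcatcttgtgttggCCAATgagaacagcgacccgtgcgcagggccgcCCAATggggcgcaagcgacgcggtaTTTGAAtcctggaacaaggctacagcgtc
PLK1: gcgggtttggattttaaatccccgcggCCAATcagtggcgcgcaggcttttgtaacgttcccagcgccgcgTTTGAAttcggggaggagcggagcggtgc
KIF11: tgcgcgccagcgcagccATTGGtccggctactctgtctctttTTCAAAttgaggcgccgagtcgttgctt
KIF4A: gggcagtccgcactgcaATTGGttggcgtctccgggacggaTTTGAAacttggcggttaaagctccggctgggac
CDC42EP2: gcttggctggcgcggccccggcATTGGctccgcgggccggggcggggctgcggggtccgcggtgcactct

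In CCNB2 and PLK1 the CHR begins 29 bases before the start, in KIF11 28 and in KIF4A 34 bases before it, each with an NF-Y box upstream. KIF20A has a pair of NF-Y boxes and no match to these CHR letters in the whole promoter, and CDC42EP2 has 1 NF-Y box and no CHR. A CHR was found in 27 of 45 division promoters (60%), against 12.7% of the 2697 listed genes with a promoter and 15.4% of all 27305 RefSeq promoters. Beginning within 50 bases of the start it was found in 23 of 45 (51.1%), against 4.56% of listed genes and 4.67% of all promoters. An NF-Y box was present in 64.4% of division promoters, against 37.3% and 35.7%, and both elements in 42.2%, against 5.71% and 6.08%. The E2F sites TTTGGCGC and TTTCCCGC, searched on both strands, were rarer, in 8.89% of division promoters (4 of 45), against 3.23% and 2.31%. Among the other members 1 of 8 promoters, that of SKAP2, held a CHR. Overlapping matches were counted, and a match describes letters in a window, not a used site.

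**Figure D1:**
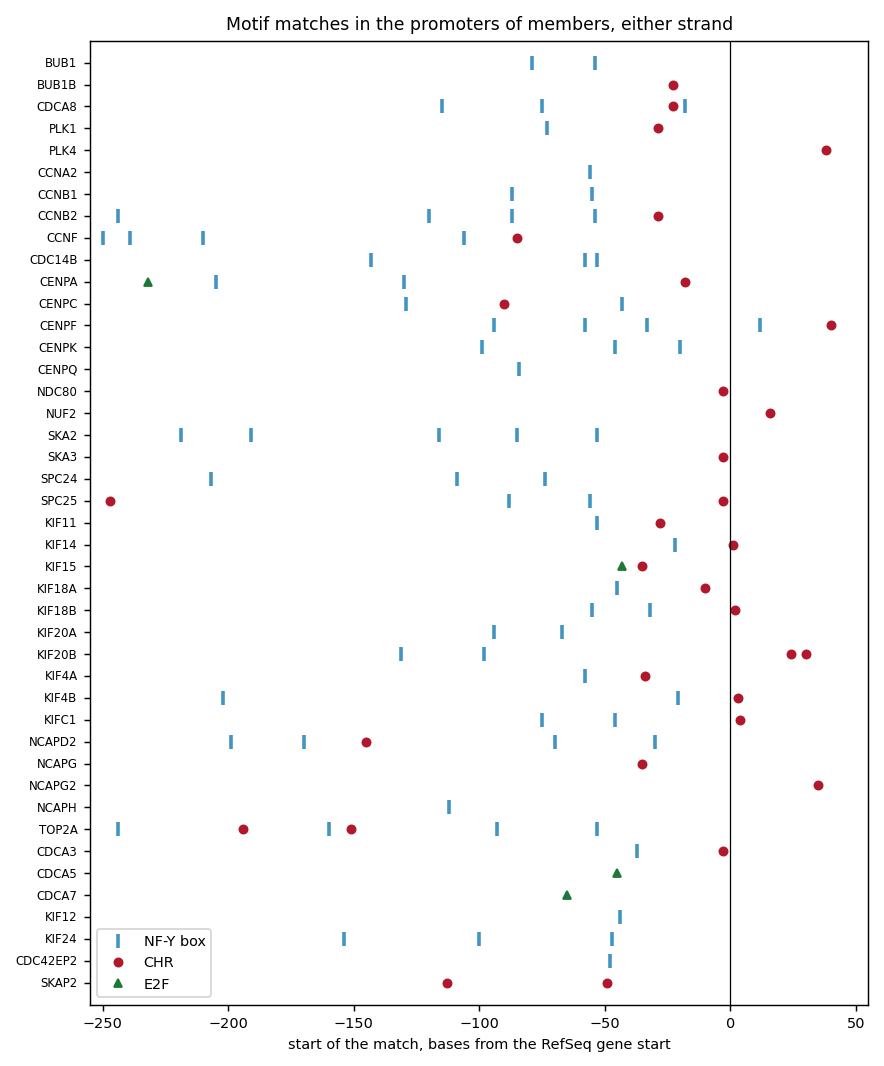
Positions of matches to the CHR, the NF-Y box and the E2F sites (either strand) in the RefSeq promoters of the members with at least 1 match. The x axis gives the first base of the match relative to the gene start, in bases; 23 of 45 division promoters had a CHR within 50 bases of the start.

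The division genes fell together in GLY. Of the 61 members tested, 56 were lower and 4 higher than in untreated cells at an adjusted p under 0.05, against backgrounds of 64.6% lower and 19.7% higher among the 3429 genes tested. Each of the 50 division members tested was among the 56. Their median log2 fold change was −1.37 (range −2.85 for KIF20A to −0.80 for CDCA5), beside −1.15 for all genes tested. The GLY libraries lay wholly below the untreated ones for the same 56 members and wholly above them for 3, against 65.5% and 17.8% of genes tested. KIF4B, the near-identical copy of KIF4A, stayed at or under 0.07 FPKM in each library and failed the low-count filter. In RNA from whole cultures, fewer cells in late cell cycle phases and less of these RNAs per cell cannot be told apart.

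The direction depends on the scale. These fold changes are relative to the total reads of each library; scaling by TMM within the table, which centres the listed genes near 0, raised every GLY log2 fold change by about 1.14 and left 6 members lower and 4 higher (10.0% and 23.7% of the genes tested). The 6 were KIF20A (−1.74), CENPE (−1.13), KIF26B (−1.05), CENPI (−0.79), NCAPD2 (−0.60) and SKA2 (−0.53). This count lies near the 10.0% of all genes tested, so it does not set the members apart on that scale. On that scale the members' median was −0.20 beside −0.02 for all genes tested, and 7 of the 56 turned to values above 0 that did not pass: CCNB2, CCNF, CDCA5, CDCA8, CENPC, NCAPG and PLK1. In the authors' deposited table the log2 ratios of GLY over untreated equal count ratios moved by −0.0731 log2 units, where the recovered library totals give −0.0746. Its limits, a log2 ratio of 1 or more in size with a q-value up to 0.001, mark 54 of the 62 members lower and 4 higher in GLY, against 59.6% and 18.2% of all listed genes, and 47 lower and 2 higher in GLY_PUE, against 50.4% and 18.6%.

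**Figure D2:**
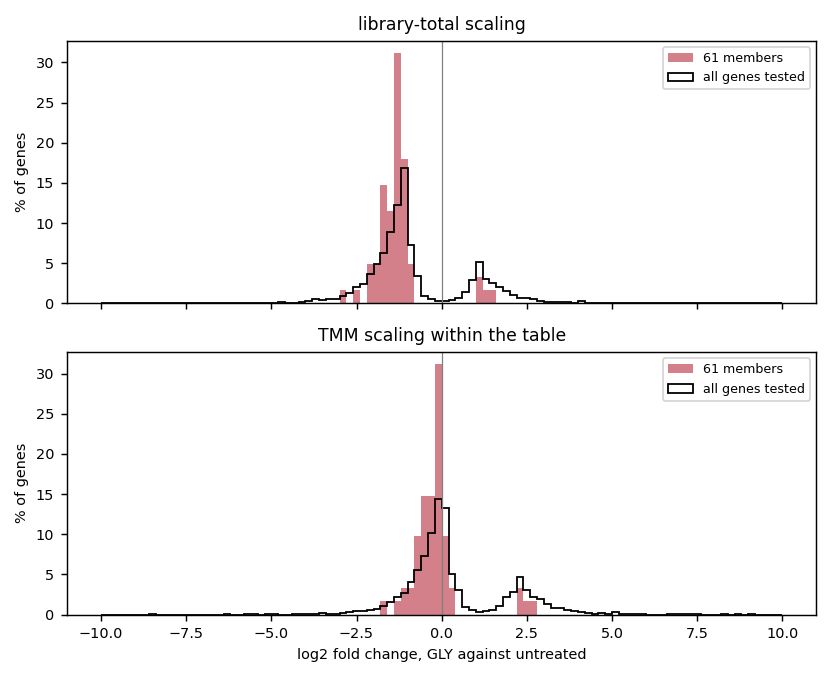
Distribution of log2 fold changes of GLY against untreated (x axis) as a percentage of genes (y axis), for the 61 members (filled) and all genes tested (outline), with libraries scaled to total reads (top) and by TMM within the table (bottom). The members' median is −1.32 with total reads and −0.20 with TMM, and the 4 members that were higher stand apart on the right on both scales.

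The table holds 5 of 8 listed cyclins, and 5 of 5 passed as lower in GLY, against 64.6% of genes tested. Their median log2 fold change was −1.29, and −0.14 with TMM, where 0 passed and CCNB2 at 0.10 and CCNF at 0.02 turned above 0. The role counts here and below cover only listed genes in this table selected for change, and are read beside that 64.6%. CCNB1 and CCNB2, the B cyclins that drive entry into mitosis, were the most abundant members in untreated cells, at 103 ± 9.11 and 104 ± 21.5 FPKM (SD, n = 3). CCNB1 stood at 36.7, 37.3 and 47.1 FPKM in GLY_PUE, 40.4, 38.7 and 47.2 FPKM in GLY, 95.8, 99.96 and 108 FPKM in PUE and 99.3, 96.4 and 113 FPKM in untreated libraries. The GLY and GLY_PUE libraries overlapped each other and lay far below the untreated ones, and the PUE libraries overlapped the untreated ones (−1.29, SE 0.20 for GLY and −1.35, SE 0.20 for GLY_PUE against untreated). CCNB2 stood at 43.7, 40.2 and 55.6 FPKM in GLY_PUE and 45.04, 43.2 and 61.03 FPKM in GLY libraries, against 90.7, 91.7 and 128 FPKM in untreated libraries. CCNA2, the A cyclin of S and G2 phase, stood at 18.4, 18.5 and 26.6 FPKM in GLY_PUE and 8.34, 19.8 and 30.6 FPKM in GLY libraries, against 48.5, 47.7 and 65.5 FPKM in untreated libraries. GLY replicate 1 gave the lowest CCNA2 value of all 12 libraries, and the GLY_PUE and GLY groups lay wholly below the untreated one.

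CCNE2, an E cyclin that pairs with CDK2 at entry into S phase, showed the largest fall of the cyclins. It stood at 1.81, 1.59 and 2.33 FPKM in GLY_PUE, 0.06, 1.88 and 3.2 FPKM in GLY, 8.12, 7.36 and 12.1 FPKM in PUE and 8.24, 7.96 and 11.2 FPKM in untreated libraries. GLY replicate 1 was close to 0 while the other GLY libraries were not, and the fold change was −2.41 with that library and −1.84 without it. CCNF, an F-box cyclin that marks proteins for destruction rather than activating a kinase, had a log2 fold change of −1.15 in GLY and −1.23 in GLY_PUE.

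The CDC genes of the division cycle that the table holds also fell in GLY, 4 of 4, against 64.6% of genes tested. Each was below 0 under TMM as well but with none passing there. These are 3 of 6 listed phosphatases and 1 of 3 listed replication genes. Of 7 listed for the anaphase-promoting complex and ubiquitin the table holds 0. CDC25C, the phosphatase that removes inhibitory phosphates from CDK1, stood at 5.29, 5.96 and 9.55 FPKM in GLY_PUE and 7.35, 6.28 and 9.07 FPKM in GLY libraries, against 15.4, 13.6 and 21.7 FPKM in untreated libraries. CDC7, the kinase that fires replication origins, stood at 2.87, 2.93 and 4.06 FPKM in GLY_PUE and 1.39, 3.39 and 4.2 FPKM in GLY libraries, against 9.1, 9.43 and 12.2 FPKM in untreated libraries, with log2 fold change −1.77, SE 0.35, adjusted p = 0.00107 in GLY. CDC14A and CDC14B, counterparts of the yeast phosphatase of mitotic exit, were low, at mean levels of 5.56 ± 0.7 and 5.48 ± 0.506 FPKM in untreated cells (SD, n = 3). CDC14A fell in GLY (−1.56, SE 0.46) and missed the threshold in GLY_PUE (−1.05, SE 0.46, adjusted p = 0.0508). With the replicate number as a block it passed in GLY_PUE too (adjusted p = 0.0332 by edgeR).

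The mitotic kinases, checkpoint proteins and chromosomal passengers fell in GLY, 8 of 8, with a median log2 fold change of −1.21 (−0.09 and none passing with TMM, where PLK1 at 0.09 and CDCA8 at 0.08 turned above 0). AURKA, the kinase that matures spindle poles, stood at 23.5, 23.6 and 38.1 FPKM in GLY_PUE, 19.95, 27.8 and 37.6 FPKM in GLY, 87.98, 92.5 and 97.2 FPKM in PUE and 86.8, 89.8 and 95 FPKM in untreated libraries. GLY and GLY_PUE libraries ranged from 19.95 to 38.1 FPKM and those without GLY from 86.8 to 97.2 FPKM, a gap wider than the range within either pair of groups (log2 fold change −1.67, SE 0.27, adjusted p = 0.000329 in GLY). PLK1, which acts from mitotic entry to cytokinesis, stood at 31.8, 32.6 and 48.1 FPKM in GLY_PUE, 49.7, 33.5 and 42.4 FPKM in GLY, 85.9, 86.3 and 91.6 FPKM in PUE and 87.97, 90.3 and 89.1 FPKM in untreated libraries. Here GLY replicate 1 was the highest of the GLY libraries, unlike for most division members.

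TTK, the checkpoint kinase also called MPS1, had a larger fold change (−1.58, SE 0.38) than its checkpoint partners BUB1 (−1.08, SE 0.31) and BUB1B (−1.29, SE 0.34), by less than these errors allow to separate. TTK stood at 14.4, 13.98 and 19.1 FPKM in GLY_PUE and 5.34, 13.2 and 21.5 FPKM in GLY libraries, against 37.9, 35.8 and 45.96 FPKM in untreated libraries, and GLY replicate 1 was again the lowest library. BUB1 stood at 27.5, 30.03 and 35.6 FPKM in GLY_PUE and 12.6, 28.3 and 37.6 FPKM in GLY libraries, against 54.8, 53.6 and 56.9 FPKM in untreated libraries. PLK4, which starts centriole duplication, had −1.14, SE 0.33 in GLY and −0.83, SE 0.33 in GLY_PUE. Of the passenger complex that corrects faulty attachments, BIRC5 (survivin) stood at 12.7, 13.9 and 14.7 FPKM in GLY_PUE, 19.6, 15.3 and 15.2 FPKM in GLY, 37.6, 40.2 and 47.7 FPKM in PUE and 39.5, 38.1 and 44.5 FPKM in untreated libraries. BIRC5 was the 1 member whose GLY_PUE libraries lay wholly below the GLY ones, as did 1.60% of genes tested, and the difference did not pass (log2 fold change −0.26, SE 0.21, adjusted p = 0.959). Its partner CDCA8 (borealin) had −1.09, SE 0.20 in GLY and −1.22, SE 0.21 in GLY_PUE.

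**Figure D3:**
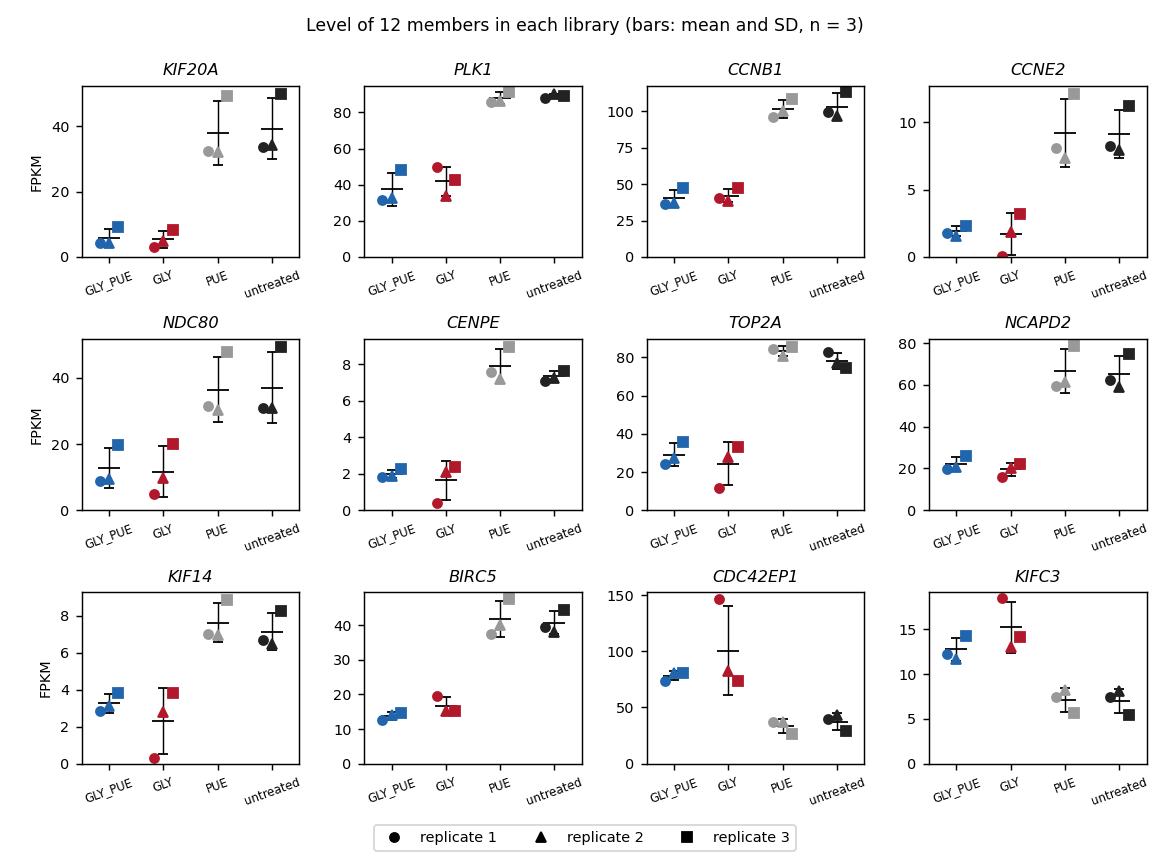
Level in FPKM (y axis, starting at 0) of 12 members in each library, by group (x axis), with replicates 1, 2 and 3 as circle, triangle and square and the group mean and SD (n = 3) as bars. The 10 division members shown are lower in both GLY groups than in PUE and untreated libraries, CDC42EP1 and KIFC3 are higher, and GLY replicate 1 is near 0 for CCNE2 and KIF14.

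Kinetochore and centromere genes fell in GLY, 14 of 14, with a median log2 fold change of −1.43 (−0.33 with TMM, where CENPE, CENPI and SKA2 still passed and CENPC at 0.13 turned above 0). CENPE, a kinesin that carries chromosomes to the spindle equator, fell the most of them. It stood at 1.8, 1.9 and 2.26 FPKM in GLY_PUE, 0.4, 2.11 and 2.39 FPKM in GLY, 7.55, 7.21 and 8.95 FPKM in PUE and 7.1, 7.26 and 7.65 FPKM in untreated libraries. The GLY and GLY_PUE libraries reached at most 2.39 FPKM and the others started at 7.10 FPKM. CENPF, a large outer kinetochore protein, stood at 6.56, 8.44 and 7.28 FPKM in GLY_PUE and 2.28, 7.68 and 5.78 FPKM in GLY libraries, against 21.1, 18.2 and 17.2 FPKM in untreated libraries. CENPI, of the constitutive centromere network, stood at 2.1, 1.99 and 3.31 FPKM in GLY_PUE and 1.01, 2.49 and 3.41 FPKM in GLY libraries, against 6.4, 6.59 and 8.91 FPKM in untreated libraries. Both lay far below untreated in every library with GLY, with log2 fold change −1.89, SE 0.34, adjusted p = 0.000548 for CENPI in GLY.

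The NDC80 complex, which grips microtubules, has 4 subunits, and the table holds each of them. NDC80 stood at 8.89, 9.6 and 19.7 FPKM in GLY_PUE, 5.0, 9.8 and 20.1 FPKM in GLY, 31.5, 30.2 and 47.7 FPKM in PUE and 30.8, 31.1 and 49.5 FPKM in untreated libraries. Within every group the library numbered 3 was the highest, and both groups with GLY lay wholly below the others. NUF2, the partner of NDC80, stood at 6.21, 7.06 and 11.2 FPKM in GLY_PUE and 2.67, 7.51 and 10.6 FPKM in GLY libraries, against 14.95, 15.6 and 23.9 FPKM in untreated libraries. SPC25, at the inner end of the complex, stood at 16.7, 19.1 and 19.8 FPKM in GLY_PUE and 20.6, 18.8 and 19.4 FPKM in GLY libraries, against 44.2, 42.99 and 52.1 FPKM in untreated libraries, with the tightest values of the 4 (−1.24, SE 0.21 in GLY). SPC24 was the least abundant subunit, at 2.67 ± 1.17 FPKM in GLY_PUE, 2.52 ± 0.326 FPKM in GLY and 6.54 ± 1.17 FPKM in untreated libraries (SD, n = 3 each). Log2 fold changes in GLY spanned −1.24 for SPC25 to −1.67 for NDC80, a span within the standard error of −1.67, SE 0.47 for NDC80.

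SKA2 and SKA3, of the complex that couples kinetochores to shrinking microtubules, differed in spread. SKA2 stood at 11.3, 12.5 and 11.1 FPKM in GLY_PUE, 8.33, 11.4 and 10.8 FPKM in GLY, 32.1, 33.1 and 33.1 FPKM in PUE and 31.6, 31.7 and 33.8 FPKM in untreated libraries. Its libraries agreed closely within each group, and it had the smallest adjusted p of the members in GLY (6.71e-05). SKA3 stood at 14.3, 14.4 and 19.9 FPKM in GLY_PUE and 10.2, 15.1 and 22.3 FPKM in GLY libraries, against 37.9, 36.2 and 56.3 FPKM in untreated libraries. CENPA, the histone variant that marks the centromere, stood at 9.97, 9.07 and 14.4 FPKM in GLY_PUE and 7.39, 10.1 and 18.97 FPKM in GLY libraries, against 24.8, 26.1 and 30.8 FPKM in untreated libraries. The centromere network genes CENPC, CENPK, CENPL and CENPQ had log2 fold changes of −0.95, −1.37, −1.13 and −1.51 in GLY. CENPC (0.0627) and CENPK (0.0611) were the 2 of these 14 whose adjusted p missed the threshold in GLY_PUE, and with the replicate number as a block both passed (adjusted p = 0.0365 and 0.0291 by edgeR).

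Motors of the spindle fell in GLY, 9 of 9 tested mitotic kinesins, with a median of −1.53 (−0.48 with TMM, where 1, KIF20A, passed and none turned above 0). KIF20A, the motor of the central spindle that is needed for cytokinesis, fell the most of all members. It stood at 4.28, 4.29 and 9.06 FPKM in GLY_PUE, 3.07, 4.98 and 8.27 FPKM in GLY, 32.3, 32.2 and 49.4 FPKM in PUE and 33.5, 34.2 and 49.99 FPKM in untreated libraries. Every library with GLY was at or below 9.06 FPKM and every library without it at or above 32.2 FPKM, and within each group the library numbered 3 was the highest (log2 fold change −2.85, SE 0.42, adjusted p = 0.00021 in GLY; log2 fold change −2.74, SE 0.42, adjusted p = 0.000276 in GLY_PUE). It is also among the 6 members that passed under TMM, at −1.74.

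KIF18A, which dampens chromosome oscillations, stood at 6.14, 6.84 and 8.81 FPKM in GLY_PUE and 1.99, 6.28 and 9.86 FPKM in GLY libraries, against 20.3, 19.97 and 27.7 FPKM in untreated libraries. KIF11, the motor that pushes spindle poles apart and whose CHR is shown above, stood at 8.29, 8.0 and 11.8 FPKM in GLY_PUE and 4.3, 8.97 and 12.2 FPKM in GLY libraries, against 21.9, 21.6 and 28.04 FPKM in untreated libraries. KIF15, which can stand in for KIF11, had −1.67, SE 0.34 in GLY. KIF11 had −1.49, SE 0.34, so the fold changes of these spindle motors lay within their errors of each other. KIFC1, a motor towards the minus end that gathers spindle poles, stood at 10.7, 10.48 and 16.8 FPKM in GLY_PUE, 13.7, 10.3 and 14.8 FPKM in GLY, 29.8, 31.95 and 38.98 FPKM in PUE and 31.7, 32.2 and 35.7 FPKM in untreated libraries. KIF4A, a motor on chromosome arms, stood at 10.03, 10.9 and 14.6 FPKM in GLY_PUE and 7.42, 10.1 and 13.3 FPKM in GLY libraries, against 26.1, 24.8 and 27.9 FPKM in untreated libraries. KIF14, another motor of cytokinesis, stood at 2.83, 3.09 and 3.84 FPKM in GLY_PUE and 0.32, 2.78 and 3.82 FPKM in GLY libraries, against 6.65, 6.48 and 8.26 FPKM in untreated libraries. GLY replicate 1 was far below the other GLY libraries for KIF14, whose log2 fold change was −1.63 with and −1.11 without it. In GLY_PUE KIF14 did not pass (log2 fold change −1.15, SE 0.58, adjusted p = 0.0815). With GLY replicate 1 left out of the shared spread it passed there (−1.15, adjusted p = 0.000278 by edgeR). KIF18B and KIF20B had −1.20, SE 0.23 and −1.53, SE 0.43 in GLY.

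Chromosome compaction genes fell in GLY, 6 of 6, with a median of −1.29 (−0.18 with TMM, where NCAPD2 passed and NCAPG at 0.05 turned above 0). TOP2A, the topoisomerase that untangles sister chromatids, stood at 24.3, 27.2 and 35.9 FPKM in GLY_PUE, 11.9, 28.1 and 33.2 FPKM in GLY, 84.3, 80.5 and 85.2 FPKM in PUE and 82.7, 77.3 and 74.4 FPKM in untreated libraries. NCAPD2, a subunit of condensin I, stood at 19.8, 20.7 and 26.1 FPKM in GLY_PUE, 15.99, 20.5 and 22.3 FPKM in GLY, 59.7, 61.4 and 78.8 FPKM in PUE and 62.3, 59.2 and 74.8 FPKM in untreated libraries. All 6 libraries with GLY were at or below 26.1 FPKM and all 6 without it at or above 59.2 FPKM (log2 fold change −1.74, SE 0.23, adjusted p = 9.56e-05 in GLY). Its counterpart in condensin II, NCAPD3, stood at 9.05, 10.1 and 10.2 FPKM in GLY_PUE and 4.15, 9.19 and 9.25 FPKM in GLY libraries, against 17.6, 18.3 and 22.2 FPKM in untreated libraries. The other condensin I subunits NCAPG and NCAPH had −1.06, SE 0.26 and −1.22, SE 0.29 in GLY, and the condensin II subunit NCAPG2 had −1.12, SE 0.34. In GLY_PUE each of the 6 passed as well, NCAPG2 with an adjusted p of 0.0413.

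Of the other CDCA genes, 4 of 4 fell in GLY, with a median of −1.30 (−0.22 with TMM, where none passed and CDCA5 at 0.36 turned above 0). CDCA3, a trigger of mitotic entry, stood at 5.28, 5.89 and 10.8 FPKM in GLY_PUE and 7.58, 6.02 and 9.87 FPKM in GLY libraries, against 23.5, 24.9 and 28.3 FPKM in untreated libraries. CDCA5, or sororin, which guards cohesin on sister chromatids, stood at 26.9, 27.3 and 30.6 FPKM in GLY_PUE, 35.3, 28.6 and 33.97 FPKM in GLY, 51.8, 54.4 and 54.7 FPKM in PUE and 56.6, 57.7 and 55.9 FPKM in untreated libraries. It had the smallest fall of the division members in GLY (−0.80, SE 0.19). CDCA5 is also the 1 member whose PUE libraries lay wholly below the untreated ones, as did 1.66% of genes tested, with a difference (−0.08, SE 0.18) that did not pass. CDCA2, which brings a phosphatase to chromatin at mitotic exit, had −1.37, SE 0.32, and CDCA7, a zinc finger protein of chromatin, −1.22, SE 0.34.

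**Figure D4:**
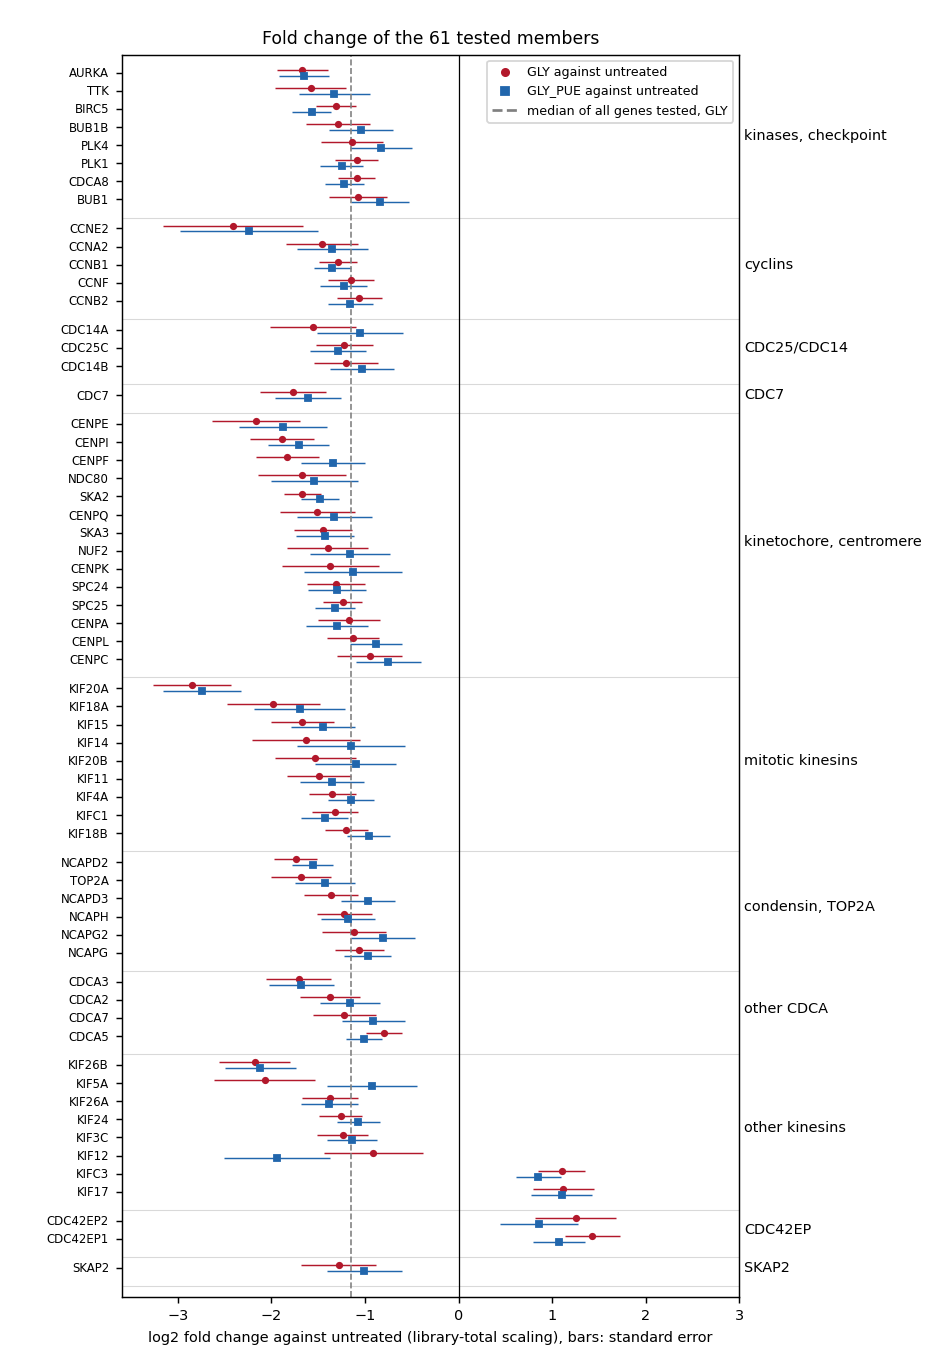
Log2 fold change against untreated (x axis, total-read scaling, bars standard error) of the 61 tested members by role, for GLY (circles) and GLY_PUE (squares). The 50 division members lie between −2.85 and −0.80 in GLY, on both sides of the median of all genes tested (dashed, −1.15), and 4 members lie above 0; with TMM scaling 7 of those that passed as lower in GLY move above 0.

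The members that rose all came from outside the division machinery. Of the other 11 members, 6 fell and 4 rose in GLY. The 4 that rose also passed under TMM, which raised every GLY log2 fold change, so this adds no separate support. CDC42EP1, which binds the GTPase CDC42 and organises septins, stood at 73.6, 80.95 and 80.7 FPKM in GLY_PUE, 146, 82.1 and 73.7 FPKM in GLY, 37.5, 37.2 and 26.6 FPKM in PUE and 39.9, 43.4 and 28.7 FPKM in untreated libraries. The libraries with GLY were all at or above 73.6 FPKM and the others all at or below 43.4 FPKM (log2 fold change 1.43, SE 0.29, adjusted p = 0.00112 in GLY; log2 fold change 1.07, SE 0.28, adjusted p = 0.00566 in GLY_PUE). Its relative CDC42EP2 stood at 20.4, 19.9 and 9.63 FPKM in GLY_PUE, 35.8, 19.5 and 10.2 FPKM in GLY, 9.69, 8.4 and 6.06 FPKM in PUE and 9.9, 10.7 and 6.88 FPKM in untreated libraries. In each group the library numbered 3 was the lowest, GLY replicate 3 at 10.2 FPKM overlapped the untreated libraries, and without GLY replicate 1 the log2 fold change was 0.70 and no longer passed (adjusted p = 0.0988).

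KIFC3, a motor towards the minus end known from epithelial junctions, stood at 12.3, 11.7 and 14.3 FPKM in GLY_PUE, 18.5, 13.1 and 14.1 FPKM in GLY, 7.39, 8.21 and 5.62 FPKM in PUE and 7.43, 8.08 and 5.46 FPKM in untreated libraries. It was higher in all 6 libraries with GLY than in any other library (log2 fold change 1.10, SE 0.25, adjusted p = 0.00206 in GLY). KIF17, a transport motor known from mouse neurons, stood at 1.17, 0.77 and 1.1 FPKM in GLY_PUE, 1.39, 0.81 and 0.86 FPKM in GLY, 0.65, 0.46 and 0.41 FPKM in PUE and 0.58, 0.49 and 0.34 FPKM in untreated libraries. These levels are low, and the log2 fold changes were 1.12, SE 0.33 in GLY and 1.10, SE 0.33 in GLY_PUE. On the TMM scale, which raised every GLY log2 fold change, both were also called higher, at 2.26 for KIFC3 and 2.29 for KIF17.

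KIF26B, an atypical kinesin, fell in both groups. It stood at 0.35, 0.43 and 0.55 FPKM in GLY_PUE, 0.27, 0.4 and 0.61 FPKM in GLY, 1.57, 1.59 and 2.78 FPKM in PUE and 1.52, 1.63 and 2.86 FPKM in untreated libraries. The library numbered 3 was again the highest in each group, and the fold change in GLY (−2.18, SE 0.38) also passed under TMM (−1.05). Its relative KIF26A had −1.37, SE 0.30, the centriolar kinesin KIF24 −1.26, SE 0.23 and the transport motor KIF3C −1.24, SE 0.27 in GLY. KIF5A, a neuronal motor, had at most 22 reads in a library and 0.01 to 0.03 FPKM in GLY, so that its −2.07, SE 0.54 rests on few reads. KIF12 stood at 0.1, 0.15 and 0.18 FPKM in GLY_PUE and 0.5, 0.34 and 0.08 FPKM in GLY libraries, against 0.86, 0.52 and 0.38 FPKM in untreated libraries. GLY replicate 1 reached the untreated range, and KIF12 was the 1 member that did not pass in GLY (log2 fold change −0.91, SE 0.53, adjusted p = 0.117; without that library −1.65, adjusted p = 0.0162). SKAP2, an adaptor of Src family kinases, fell in GLY (−1.28, SE 0.40).

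Most members were also lower with GLY and PUE together. Of the 61 members, 52 were lower and 3 higher in GLY_PUE than in untreated cells, against 57.1% and 20.2% of genes tested, and 46 of the 50 division members were lower. The GLY_PUE libraries lay wholly below the untreated ones for 57 members and wholly above them for 3, against 65.4% and 21.8% of genes tested. The median of the division members was −1.29, beside −1.03 for all genes tested. The 6 members that did not pass were CDC14A, CENPC, CENPK, KIF14, KIF5A and CDC42EP2, with adjusted p between 0.0508 and 0.09, and the first 5 were below untreated in all 3 GLY_PUE libraries. Under TMM 5 were lower and 4 higher (11.5% and 23.8% of genes tested), the 5 being KIF20A, KIF26B, CENPI, AURKA and NCAPD2. Neither count exceeds those shares of all genes tested. Of the 52, 9 turned above 0. With the replicate number as a block 55 were lower, among them 49 of the 50 division members, and 4 higher, and without the libraries numbered 3 there were 42 and 3. Without GLY replicate 1, which lies outside this comparison but enters the shared spread, 56 were lower and 4 higher. The fold changes kept their size, with adjusted p of 0.00395 for CDC14A, 0.00312 for CENPC, 0.00196 for CENPK and 0.000278 for KIF14 by edgeR. CDC42EP2 also passed then (0.0333), and KIF5A did not (0.0768). The shares of all genes tested are not given here for the block or for the fits with libraries left out. Those counts describe the members alone. GLY and GLY_PUE share the untreated libraries, so that these comparisons are not independent.

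Adding GLY where PUE was present gave a comparison with other controls. In GLY_PUE against PUE, 54 members were lower and 4 higher, beside 57.3% and 20.6% of genes tested (5 and 4 under TMM). The division members had a median of −1.27, with 47 of 50 lower (50 of 50 with the replicate block), and 57 members had GLY_PUE libraries wholly below the PUE ones, beside 65.8% of genes tested. KIF20A (−2.70, SE 0.42) again fell the most. For TMM and the replicate block the shares of all genes tested are not given for this comparison. These GLY_PUE libraries are those of the comparison with untreated cells.

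PUE alone moved no member past the threshold. None passed in PUE against untreated at an adjusted p under 0.05 by edgeR, DESeq2 or limma-voom, and none had an unadjusted p under 0.05 by edgeR, against 0% and 0.350% of genes tested. A share of 0.350% lies far below the 0.05 level, so these p-values are conservative. A single estimate of the spread served all 12 libraries, GLY replicate 1 among them, and the replicate number was not modelled. With a replicate block, with only the groups compared or without GLY replicate 1, 0 members passed as well. The log2 fold changes ranged from −0.18 for CDC42EP2 to 0.52 for KIF5A. For 51 of the 61 members the 95% interval stayed within 1 log2 unit of 0, so a change of 2-fold was outside it. AURKA was measured at 0.04 with an interval of −0.53 to 0.60, and CCNB1 at −0.02 with −0.45 to 0.40. In the authors' deposited values 0 members met their limits for PUE over untreated, beside 13 listed genes lower and 6 higher. Some members still had small q-values there. Examples are TOP2A (log2 ratio 0.09, q = 3.1e-11), CENPF (0.10, q = 3.18e-05) and CDC42EP1 (−0.14, q = 0.000282).

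PUE on top of GLY likewise changed no member past the threshold: 0 of 61 at an adjusted and 0 at an unadjusted p under 0.05 by edgeR, beside 0% and 1.66% of genes tested, and 0 by DESeq2 and limma-voom. The log2 fold changes of GLY_PUE against GLY ran from −1.02 for KIF12 to 1.13 for KIF5A, both genes with few reads. Of 61 intervals, 41 stayed within 1 log2 unit of 0. In the authors' deposited values 0 members met their limits here, beside 27 listed genes lower and 43 higher. Some members still had small q-values, such as CENPF (log2 ratio 0.49, q = 1.26e-50) and BIRC5 (−0.27, q = 6.74e-10). The GLY_PUE libraries are all labelled 12 h and the GLY ones 12, 13 and 14 h, so PUE and labelled time are partly mixed here. KIF5A is the 1 member whose GLY_PUE libraries lay wholly above the GLY ones, at 0.04 to 0.06 FPKM against 0.01 to 0.03 FPKM, as did 3.21% of genes tested. The interaction, which asks if the GLY response differed with PUE present, also passed for 0 of 61 members (0 at an unadjusted p under 0.05, against 0.962% of genes tested). For this test 22 of the 61 intervals stayed within 1 log2 unit of 0, with half-widths of 0.56 to 2.19. The shares of 1.66% and 0.962% also lie below the 0.05 level, under the same shared spread.

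Ratios between members do not depend on how a library is scaled. The 7 pairs were chosen after their values were seen, so they carry no test. KIF20A relative to CCNB1 was 0.141 ± 0.0442 in GLY_PUE and 0.127 ± 0.0497 in GLY, against 0.372 ± 0.0732 in PUE and 0.378 ± 0.0555 in untreated libraries (FPKM ratio, SD, n = 3 each). All 6 libraries with GLY lay between 0.076 and 0.193 and the other 6 between 0.322 and 0.456. CCNE2 relative to CCNA2 was 0.0907 ± 0.00681 in GLY_PUE and 0.0689 ± 0.0536 in GLY, against 0.169 ± 0.00195 in untreated libraries. CCNB2 relative to CCNB1 differed less, with 1.15 ± 0.0623 in GLY_PUE, 1.18 ± 0.102 in GLY and 0.999 ± 0.117 in untreated libraries, and these ranges overlapped. NCAPD2 relative to NCAPD3, the paired subunits of condensin I and II, was 2.26 ± 0.262 in GLY_PUE against 3.38 ± 0.153 in untreated libraries, while GLY replicate 1, at 3.85, lay above the untreated libraries and GLY replicates 2 and 3, at 2.23 and 2.41, below them. Ratios of NDC80 to SPC25 and of SKA2 to SKA3 had overlapping ranges in the groups. NDC80 relative to SPC25 was 0.678 ± 0.277 in GLY_PUE and 0.602 ± 0.404 in GLY, against 0.789 ± 0.139 in untreated libraries. SKA2 relative to SKA3 was 0.739 ± 0.162 in GLY_PUE and 0.686 ± 0.176 in GLY, against 0.77 ± 0.148 in untreated libraries. CDC42EP1 relative to CCNB1 was 1.97 ± 0.232 in GLY_PUE and 2.44 ± 1.07 in GLY, against 0.368 ± 0.103 in untreated libraries.

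GLY replicate 1 set much of the spread in the GLY group. Relative to the untreated mean, the median log2 level of the 50 division members was −2.22 in GLY replicate 1, −1.39 in replicate 2 and −1.01 in replicate 3, while the GLY_PUE libraries stood at −1.48, −1.44 and −0.96. These GLY libraries are labelled 12, 13 and 14 h in that order, so replicate and labelled time cannot be told apart in GLY. All GLY_PUE libraries are labelled 12 h. The deviation of GLY replicate 1 from the other GLY libraries ran with the GC content of the transcript. Over the 61 members Spearman's rho was 0.814, over 3299 listed genes it was 0.733, and for single libraries of the other groups it lay between −0.334 and 0.426 over the members, as a description across genes that share the same library. The 20 members of lowest GC content (32.9 to 40.8%) had a median deviation of −1.51 log2 units and the 20 of highest (49.5 to 68.3%) one of 0.17. CCNE2 (−4.74) and KIF14 (−3.37) deviated the most downwards, and KIF12 (1.51), CDC42EP2 (1.34) and CDC42EP1 (0.91) the most upwards. Among division members PLK1 was highest, at 0.40.

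Without GLY replicate 1 the call of a fall stayed, with 57 members lower and 3 higher at a median of −1.15. Each of the 50 division members was lower (median −1.17). The share and median of all genes tested are not given here for that fit, so these values describe the members alone. CDC42EP2 lost its call and KIF12 gained one. The rho of the GLY fold change with GC content over the 61 members was 0.43 with the library and 0.0346 without it, beside 0.143 for GLY_PUE. The GC-poor CCNE2 stood at −2.41 with and −1.84 without the library, CENPE at −2.17 and −1.71, and KIF18A at −1.98 and −1.51. KIF20A had the largest fall of the division members without it too, at −2.57.

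**Figure D5:**
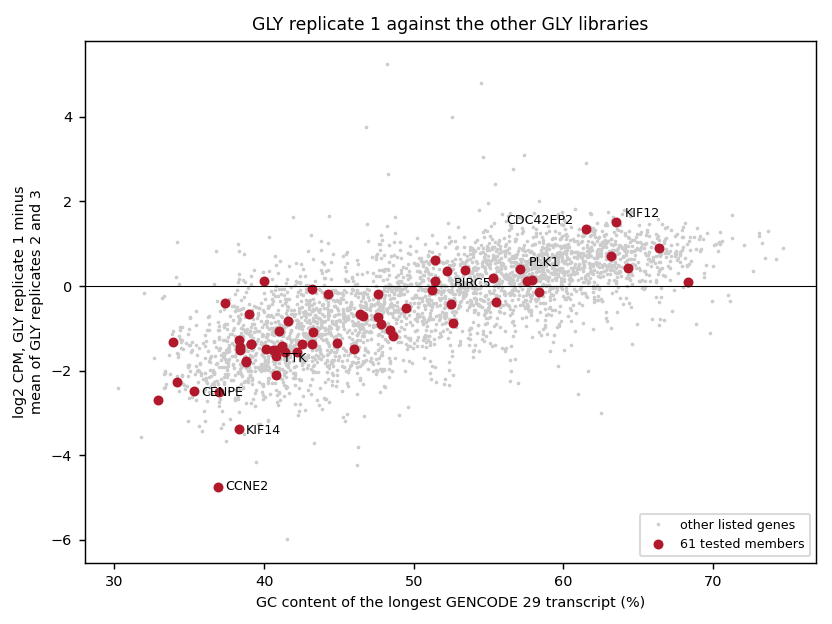
Difference in log2 CPM between GLY replicate 1 and the mean of GLY replicates 2 and 3 (y axis) against the GC content of the longest GENCODE 29 transcript in percent (x axis), for the 61 tested members (red) and the other listed genes (grey). Of the 20 members of lowest GC content 19 lie below 0, and of the 20 of highest 14 lie at or above it and 6 below (Spearman's rho 0.814 over the members).

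Some members were higher in libraries numbered 3 than in numbers 1 and 2 of the same group, as were many other listed genes. In a model with the group and an indicator of number 3, 16 of 61 members were higher and 1, CDC42EP2, lower in number 3, beside 18.1% and 5.31% of genes tested. NDC80 (0.97, SE 0.19) and KIF20A (0.85, SE 0.15) led, followed by NUF2 (0.77, SE 0.22), KIF26B (0.76, SE 0.14) and CENPQ (0.74, SE 0.18). The median of the division members was 0.40, beside 0.23 for all genes tested. CENPF (−0.01), SKA2 (0.04) and CDCA5 (0.07) were close to 0. The number of calls, 17 in all, rested on single libraries. It was 45 without GLY replicate 1 (42 higher and 3 lower), 21 without GLY replicate 2, and 8 without untreated, PUE or GLY_PUE replicate 3. It was 10 or 11 without GLY replicate 3 or any of replicates 1 and 2 of the other 3 groups. Under TMM, which lowered these values by 0.26 log2 units, 4 passed in all. The shares of all genes tested in these alternative fits are not given here, so the changing counts describe the members alone. In GLY the number goes with the labelled hours, 12, 13 and 14 h, and cannot be told apart from them. For the other groups the labels do not say what the number marks.

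Mitosis genes with symbols outside the prefixes also fell with GLY on the scale of total reads. Lists of 26 further kinetochore, 36 spindle, 16 cohesin and 24 cell cycle control genes were compared, of which the table holds 53. The rest are not in this table of genes selected for change, so they were not analysed. Lower in GLY were 53 of the 53, against 64.6% of all genes tested (median −1.40), lower in GLY_PUE 40, against 57.1%, and in PUE 0. Under TMM 6 of the 53 were lower in GLY, with a median of −0.34, and 5 in GLY_PUE, shares near the 10.0% and 11.5% of all genes tested, so on that scale the counts do not set the lists apart. Of kinetochore and checkpoint genes 12 of 12 fell in GLY, among them ZWINT (−1.55, SE 0.22), a kinetochore scaffold, and OIP5 (−2.38, SE 0.40), which loads CENPA. Of spindle and cytokinesis genes 21 of 21 fell, with SPAG5 at −1.49 (SE 0.24) and PSRC1 at −2.02 (SE 0.33), both spindle proteins. Of cohesin and condensin genes 8 of 8 fell in GLY and 4 in GLY_PUE, with a median that turned to 0.10 under TMM in GLY_PUE. These include ESPL1, the separase that cuts cohesin (−1.59, SE 0.22), and ESCO2, a cohesin acetyltransferase (−1.99, SE 0.46). Of the control genes 12 of 12 fell, with CDK2, the partner of the E and A cyclins, at −1.73 (SE 0.21) and FOXM1, a transcription factor of G2 and M phase genes, at −1.11 (SE 0.19).

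The falls of division members with and without the promoter elements overlapped in range, and their medians are given with no test. The median log2 fold change in GLY was −1.34 in the 26 tested members with a match to the CHR letters searched (−1.98 to −0.95). It was −1.37 in the 18 with no match to those letters (−2.85 to −0.80). In GLY_PUE these medians were −1.24 and −1.29. For the NF-Y box the medians were −1.34 in the 28 members with one and −1.38 in the 16 without in GLY, and −1.30 and −1.11 in GLY_PUE. The 8 members with no match to either element had a median of −1.46 in GLY and −1.17 in GLY_PUE.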

How the data were processed

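RNA from 12 SW480 libraries, 3 in each of 4 groups, was sequenced on the BGISEQ-500 platform from 0.5 µg of RNA, per the labels' protocols. A description field calls the line SW486. Per the file headers, the authors deposited 1 table of estimated counts per gene, not normalized, of which 58.2% were whole numbers. The authors also deposited expression values, which the headers leave without a unit and which behave as FPKM, their own log2 ratios between groups, and their p-values with q-values. The submitters' processing notes name TopHat and DESeq 1.32.0 without a role. Which tool counted reads, whether by strand and on which genome build is not given in the sources used here.

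Dividing counts by FPKM in 625 genes that had 100 counts and 5 FPKM or more in every library gave the relative library totals, which were placed on an absolute scale by 39 genes with a single transcript in GENCODE 29. With these totals a count of 0 allows up to 0.155 CPM, counting error only. Rounded counts were tested in edgeR 4.0.16 (R 4.3.3) with filterByExpr, these totals as library sizes, a robust quasi-likelihood test over the 4 groups, Benjamini-Hochberg adjustment over all 3429 genes tested and an adjusted p under 0.05. The table was selected for change, whereas TMM takes most genes as unchanged, so TMM was kept as an alternative. Others were RLE, DESeq2 1.42.0, limma-voom (limma 3.58.1), no filter, at least 50 counts in 3 libraries, only the groups compared, a replicate block, each library left out and number 3 left out. Leaving out number 3 and GLY replicate 1 together was added after seeing the data. The scripts were tested on simulated data.

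The members, role lists, marker lists and scaling were chosen with earlier results of these data known. Any member could be named. Values per library were given, within each role, for the most abundant members, those with the largest GLY fold change and those against their role's direction, and for up to 4 further mitosis genes per list by smallest p. Deviations of same-numbered libraries from their group means correlated above 0.1 at each number for GLY_PUE against untreated (0.195, 0.193 and 0.383), GLY_PUE against PUE (0.193, 0.173 and 0.398) and PUE against untreated (0.486, 0.39 and 0.703), so the numbers were taken to pair those libraries. For GLY against untreated (0.0561, 0.0974 and 0.271) and GLY_PUE against GLY (0.0784, 0.305 and 0.317) they were not.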

Additional observations from a re-analysis of the deposited data

How the results depend on the processing

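The count of members lower in GLY was 52 to 57 under every alternative but the 2 that rescale libraries within the table, where it was 6 (TMM) and 7 (RLE). For GLY_PUE against untreated it was 5 with either, and for GLY_PUE against PUE 5 (TMM) and 6 (RLE). By construction TMM and RLE centre the listed genes, most of which fell. Under them these members of GLY against untreated turned above 0, given as TMM and then RLE log2 fold change: CCNB2 0.10 and 0.04, CDCA5 0.36 and 0.30, CDCA8 0.08 and 0.01, CENPC 0.13 and 0.09, NCAPG 0.05 and 0.00, PLK1 0.09 and 0.02, and CCNF 0.02 with TMM alone. For GLY_PUE they were BUB1 0.16 and 0.13, CDCA7 0.11 and 0.08, CENPL 0.11 and 0.08, NCAPD3 0.04 and 0.01, NCAPG 0.04 and 0.01, NCAPG2 0.20 and 0.17, PLK4 0.19 and 0.16, and with TMM alone KIF18B and SKAP2 at 0.02. None of these passed. Shares of all genes tested are given above for the main fit and, in GLY and GLY_PUE against untreated, for TMM. The counts of the other settings describe the members alone. Leaving out 1 library at a time gave 53 to 57 members lower in GLY, 42 to 56 in GLY_PUE and 42 to 57 in GLY_PUE against PUE; higher members numbered 3 to 4, 3 to 4 and 2 to 4, the last count falling to 2 without PUE replicate 2 or 3 or GLY_PUE replicate 1.

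For libraries numbered 3, the 17 calls were 4 with TMM and with RLE and 26 with DESeq2, the cause of which was not tested, and 8 to 45 with 1 library left out (8 without untreated, PUE or GLY_PUE replicate 3, 45 without GLY replicate 1). The replicate block gave 56 lower and 4 higher members in GLY, 55 and 4 in GLY_PUE and 57 and 4 in GLY_PUE against PUE. It added the calls of CDC14A, CENPC, CENPK and CDC42EP2 in GLY_PUE. PUE against untreated, GLY_PUE against GLY and the interaction had 0 calls under every alternative run. Without the libraries numbered 3 and GLY replicate 1, 56 members were lower in GLY and 56 in GLY_PUE; this leaves GLY with 1 library, assumed to vary like the other groups. The 3 libraries per group limit a single member's fold change to standard errors of 0.19 to 0.75 log2 units in GLY.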
